A study of Chionodraco hamatus and Gymnodraco acuticeps and Trematomus bernacchii with 9 samples.

Results

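Head kidney RNA of Gymnodraco acuticeps, an Antarctic dragonfish, was compared with that of both other fishes in the series, to find the transcripts in which this species stood apart from each of them. The other species were Chionodraco hamatus, an icefish of a family that lacks hemoglobin, and Trematomus bernacchii, which like G. acuticeps has red blood. Each species had 3 libraries of total RNA from head kidney, 9 in all. The labels give no treatment, age or sex, and do not say whether the libraries of a species came from separate fish. The p-values here therefore reflect the spread among libraries within species, estimated from all 9 together, and that spread may be technical. The rows described are those in which G. acuticeps was called higher than both other species, or lower than both, in separate tests against each. There were 1504 of them among 8662 rows tested, of 12653 in the table.

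In bony fish blood cells form chiefly in the head kidney, which also holds adrenal tissue, the steroid-making interrenal cells and the catecholamine-making chromaffin cells. Red cell precursors make heme, an iron-holding ring built in steps that start and end in the mitochondrion, and take up iron through the transferrin receptor. They load the heme into globin chains, and fix the cell's shape with a membrane skeleton tied to the anion exchanger band 3. The same organ produces neutrophils, macrophages, lymphocytes and thrombocytes, the nucleated clotting cells of fish.

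Each row is a protein entry named by a gene mnemonic and the code of the organism in which that entry was described, so HEM6_HUMAN stands for fish reads assigned to human coproporphyrinogen oxidase. Reads of a fish gene can be spread over several entries of 1 protein or over a gene family, and such rows are uncertain. Levels are CPM, read counts scaled to a common library total and not divided by length, in replicates 1, 2 and 3 in that order. They can be compared between libraries of a species but not between rows. The reference is not stated, so whether a row was counted equally well in each species was not tested. Library totals ran from 2501922 to 12055675 counts. Spearman correlations across rows were 0.944 to 0.963 between G. acuticeps libraries, 0.844 to 0.910 within C. hamatus and 0.879 to 0.921 within T. bernacchii. Between G. acuticeps and the others they were 0.616 to 0.691 for C. hamatus and 0.690 to 0.741 for T. bernacchii. Summed interrenal markers stood at 26746 CPM in replicate 3 of C. hamatus and at most 220.1 CPM elsewhere. Chromaffin markers stood at 8648 and 3608 CPM in replicates 2 and 3 of C. hamatus and at 180 CPM in its replicate 1. They stood at 526, 144 and 498 CPM in T. bernacchii and at 72.5 to 88.1 CPM in G. acuticeps, below all other libraries. In bulk tissue, fewer cells of a type and less RNA per cell cannot be told apart.

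Rows lower in G. acuticeps than in both others outnumbered rows higher than in both. With edgeR's quasi-likelihood test and Benjamini-Hochberg adjustment, 512 rows (5.91% of those tested) were higher than in both and 992 rows (11.5%) were lower than in both. In another 117 rows the G. acuticeps level lay between those of the others and differed from each. Both comparisons use the same G. acuticeps libraries, so a row that those libraries set apart enters both. Against C. hamatus alone, 1459 rows (16.8%) were higher and 2177 (25.1%) lower, and against T. bernacchii alone 1138 (13.1%) were higher and 1583 (18.3%) lower. Against the log-scale mean of both, 1591 rows (18.4%) were higher and 1833 (21.2%) lower. The median log2 fold change over all tested rows was -0.15 against C. hamatus and -0.12 against T. bernacchii.

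**Figure D1:**
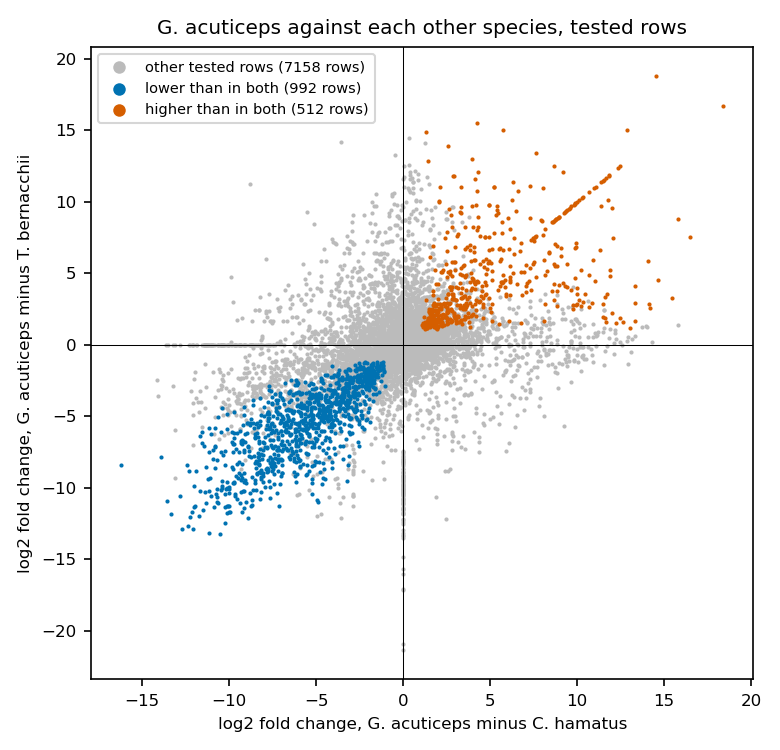
Each point is a tested row, placed by its log2 fold change of G. acuticeps against C. hamatus (horizontal) and against T. bernacchii (vertical). The 512 rows higher than in both are orange, the 992 lower than in both are blue, and the axes share the G. acuticeps libraries.

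These rows were large changes, and many were near 0 on one side. The median log2 fold changes were 3.92 and 3.81 for the higher rows against C. hamatus and T. bernacchii, and -5.27 and -5.08 for the lower rows. Of the higher rows, 139 had no count in any library of at least 1 other species, and 40 had none in either. Among the lower rows, 177 had no count in any G. acuticeps library. At least 10 counts in every library were reached by 42.6% of the higher and 23.5% of the lower rows, against 50.8% of all tested rows. Another row with the same mnemonic existed for 98 of the higher and 243 of the lower rows, and when such rows were summed 58 and 146 of these still differed the same way. In each of the 9 fits that left out 1 library, 275 of the higher and 545 of the lower rows still differed the same way. The lower rows numbered 649, 583 and 658 without G. acuticeps replicate 1, 2 or 3, and the higher rows 337 and 334 without its replicate 1 or 2. Without C. hamatus replicates 2 and 3, which carry the adrenal transcripts, 430 rows were higher and 720 lower than in both.

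Among the 29 lists, heme synthesis had the largest share of rows higher in G. acuticeps than in both others. The lists were chosen with earlier results of these data known, which can favour such a ranking. Of its 14 tested rows 7 were higher than in both and none was lower, where 5.91% of all tested rows were higher. Against C. hamatus alone 9 were higher and none lower, beside 16.8% and 25.1% of all tested rows. Against T. bernacchii alone 8 were higher and 1 was lower, beside 13.1% and 18.3%. The list median was 3.52 against C. hamatus and 1.61 against T. bernacchii on the log2 scale. Summed over the list, the level was 8744, 7374 and 7342 CPM in G. acuticeps, 2657, 2324 and 2556 CPM in T. bernacchii and 534, 895 and 1189 CPM in C. hamatus. Every G. acuticeps library lay above every other library. Without T. bernacchii replicate 1 the count of higher rows fell to 4, since HEM0_OPSTA, HEM2_MOUSE and MFRN1_DANRE no longer passed against T. bernacchii.

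The 7 rows hold 5 enzymes of the pathway, a mitochondrial iron carrier and an iron-sulfur cluster protein. HEM0_OPSTA, the erythroid form of 5-aminolevulinate synthase, which makes the first committed intermediate, stood at 2916, 2456 and 2748 CPM in G. acuticeps. It stood at 742, 1236 and 639.6 CPM in T. bernacchii and at 12.3, 7.45 and 9.53 CPM in C. hamatus. The 3 groups did not overlap, with T. bernacchii in the middle. The log2 fold change was 8.11 ± 0.56 (SE) against C. hamatus (adjusted p = 5.72e-05) and 1.63 ± 0.42 against T. bernacchii (adjusted p = 0.014, and 0.0659 without T. bernacchii replicate 1). HEM1_OPSTA, the form of that enzyme used in all cells, was not called, at 76.6, 154 and 233 CPM in G. acuticeps, 168, 607 and 546 CPM in C. hamatus and 135, 229 and 176 CPM in T. bernacchii. Its adjusted p was 0.0543 against C. hamatus and 0.804 against T. bernacchii, and its groups overlapped; the first was 0.0195 without C. hamatus replicate 1.

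HEM3_HUMAN, porphobilinogen deaminase, which joins 4 small rings into a chain, spread more within G. acuticeps, at 1903, 1005 and 330.3 CPM. It stood at 17.9, 22 and 79.4 CPM in C. hamatus and 30.4, 119 and 27.5 CPM in T. bernacchii. The lowest G. acuticeps library was still above all others. Log2 fold changes were 4.76 ± 0.95 (adjusted p = 0.003) and 4.20 ± 0.93 (adjusted p = 0.00643) against C. hamatus and T. bernacchii. They became 4.10 and 3.53 without G. acuticeps replicate 1, the first became 5.77 without C. hamatus replicate 3, and the second became 5.23 without T. bernacchii replicate 2.

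HEM6_HUMAN, coproporphyrinogen oxidase, acts late in the pathway. Its levels were 1108, 815 and 723 CPM in G. acuticeps, 29.5, 37.9 and 19.9 CPM in C. hamatus and 105, 115 and 56.4 CPM in T. bernacchii. The species did not overlap. The log2 fold changes of 4.92 ± 0.50 (adjusted p = 0.000106) and 3.26 ± 0.46 (adjusted p = 0.000514) moved by less than 1.5-fold whichever library was left out. PPOX_HUMAN, protoporphyrinogen oxidase, the next enzyme, stood at 302, 215 and 168 CPM in G. acuticeps, at most 23.7 CPM in C. hamatus and at most 76 CPM in T. bernacchii (log2 fold changes 3.92 ± 0.52 and 2.03 ± 0.48, adjusted p = 0.000385 and 0.00932).

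The other 3 rows were HEM2_MOUSE, MFRN1_DANRE and GLRX5_DANRE. MFRN1_DANRE, mitoferrin-1, brings iron into the mitochondria of red cell precursors; it stood at 146, 158 and 227 CPM in G. acuticeps and held 2 counts in all of C. hamatus. In T. bernacchii it stood at 8.97, 62.3 and 5.63 CPM, all lower, with adjusted p = 0.033, and that call was lost without any 1 of G. acuticeps replicates 1, 2 and 3 or T. bernacchii replicates 1 and 3 (adjusted p up to 0.0924). GLRX5_DANRE, glutaredoxin-5, which serves iron-sulfur cluster assembly, stood at 207, 180.1 and 198 CPM in G. acuticeps and no higher than 36.4 CPM in C. hamatus and 65.6 CPM in T. bernacchii. HEM2_MOUSE, delta-aminolevulinic acid dehydratase, stood at 219, 319 and 302 CPM in G. acuticeps, 19.3 to 43.3 CPM in C. hamatus and 57.6 to 148 CPM in T. bernacchii. Its call against T. bernacchii (adjusted p = 0.0271) was lost without G. acuticeps replicate 2 or 3 or T. bernacchii replicate 1 or 2, at adjusted p up to 0.0991.

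**Figure D2:**
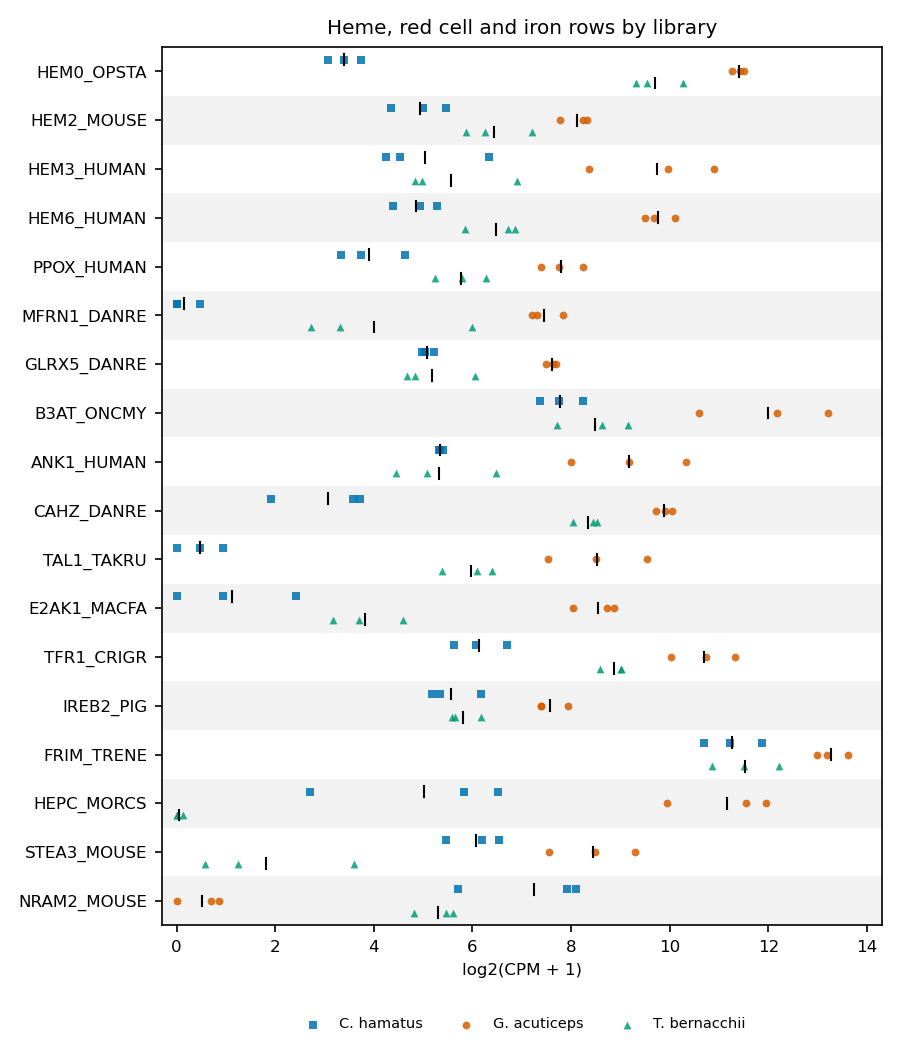
Heme, red cell and iron rows by library: each symbol is a library, placed by log2(CPM + 1), and the bar is the mean of 3 libraries on that scale. G. acuticeps libraries lie to the right of all others in every row except NRAM2_MOUSE, where they lie to the left.

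Of 12 tested iron handling rows, 5 were higher than in both and 1 was lower, while 5.91% of all tested rows were higher and 11.5% lower. List medians were 1.97 against C. hamatus and 1.06 against T. bernacchii, and the count of higher rows was 3 when C. hamatus replicate 2 alone, its replicates 2 and 3 together, or G. acuticeps replicate 1 or 2 was left out. The count of lower rows was 2 without T. bernacchii replicate 1. TFR1_CRIGR, the transferrin receptor that takes iron into the cell, stood at 2559.9, 1694 and 1042 CPM in G. acuticeps. It stood at 102, 66 and 48.1 CPM in C. hamatus and 517, 385 and 517 CPM in T. bernacchii. The groups did not overlap, and the log2 fold changes were 4.61 ± 0.53 (adjusted p = 0.00019) and 1.90 ± 0.47 (adjusted p = 0.0117).

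IREB2_PIG, an iron-sensing RNA-binding protein that in mammals stabilises the transferrin receptor transcript and blocks translation of ferritin, was higher by 1.99 ± 0.42 and 1.79 ± 0.41 on the log2 scale (adjusted p = 0.00387 and 0.00835). FRIM_TRENE, a ferritin subunit that stores iron, stood at 12619, 8119 and 9346 CPM in G. acuticeps, at most 3741 CPM in C. hamatus and at most 4783 CPM in T. bernacchii. Its adjusted p was 0.0152 and 0.0376. The first was lost without C. hamatus replicate 2 (0.0516) and the second without any 1 of G. acuticeps replicates 1, 2 and 3 or T. bernacchii replicates 1 and 3 (up to 0.144).

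HEPC_MORCS, hepcidin, a peptide hormone that in mammals blocks iron export from cells and in fish is also an antimicrobial peptide, stood at 987, 2993 and 3982 CPM in G. acuticeps and 5.57, 90.4 and 55.6 CPM in C. hamatus. In T. bernacchii it held 1 count in all, and the ratio of G. acuticeps to T. bernacchii was 55073 with a 95% counting interval from 9884 to 2175300.0. That count was in T. bernacchii replicate 3, so without this library T. bernacchii had none. STEA3_MOUSE, a ferrireductase of the transferrin cycle, was higher than in both, but its call against C. hamatus (adjusted p = 0.0429) was lost without any 1 of C. hamatus replicates 1, 2 and 3 or G. acuticeps replicates 1 and 2 (up to 0.132). NRAM2_MOUSE, the iron transporter DMT1 that moves iron out of endosomes, went the other way. It stood at 0.623, 0 and 0.814 CPM in G. acuticeps, 51.3, 274 and 241 CPM in C. hamatus and 43.4, 27.3 and 47.6 CPM in T. bernacchii, with 10 counts in G. acuticeps in all and adjusted p = 0.00019 and 0.000624.

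Of 18 tested red cell membrane and enzyme rows, 3 were higher than in both others and none was lower; over all tested rows the shares were 5.91% and 11.5%. List medians were 1.58 against C. hamatus and 1.87 against T. bernacchii. The list sum was 27914, 13365 and 6353 CPM in G. acuticeps against 2003 to 3230 CPM in C. hamatus and 2546 to 5035 CPM in T. bernacchii, so the lowest G. acuticeps library was above all others. B3AT_ONCMY, the band 3 anion exchanger, stood at 9508, 4652 and 1541 CPM in G. acuticeps, at most 299.8 CPM in C. hamatus and at most 565 CPM in T. bernacchii. Its log2 fold changes were 4.53 ± 0.75 (adjusted p = 0.00113) and 3.75 ± 0.72 (adjusted p = 0.00298), and 3.81 and 3.01 without G. acuticeps replicate 1.

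ANK1_HUMAN, ankyrin-1, which ties band 3 to the spectrin skeleton, stood at 1295, 579 and 253 CPM in G. acuticeps, 38.7, 41.3 and 39.3 CPM in C. hamatus and 32.9, 87.5 and 20.8 CPM in T. bernacchii. Its adjusted p was 0.00161 and 0.00245, and the groups did not overlap. CAHZ_DANRE, a carbonic anhydrase abundant in zebrafish red cells, was even within G. acuticeps at 841, 954 and 1062 CPM. In C. hamatus it stood at 10.9, 12.2 and 2.78 CPM and in T. bernacchii at 366, 261 and 349 CPM. The call against T. bernacchii was at adjusted p = 0.0402 with a log2 fold change of 1.55 ± 0.51, and was lost without any 1 of the G. acuticeps or T. bernacchii libraries (0.0749 to 0.106). 41_HUMAN, protein 4.1 of the membrane skeleton, and RHAG_HUMAN, a gas channel of the red cell surface, were called against C. hamatus (adjusted p = 0.0211 and 0.000314) and not against T. bernacchii (0.245 and 0.0509). The first of these calls was lost without C. hamatus replicate 1 or G. acuticeps replicate 1 (0.0558 and 0.0657), and RHAG_HUMAN also passed against T. bernacchii without C. hamatus replicate 1 or 2 or G. acuticeps replicate 3 (0.0316 to 0.0336).

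Among regulators of red cell formation, 2 of 13 tested rows were higher than in both (5.91% of all tested rows were), none was lower (11.5% of all), and the medians were 0.79 and -0.58; without C. hamatus replicate 1 the count of higher rows was 4. TAL1_TAKRU, a transcription factor needed to start blood formation, stood at 747, 363 and 185 CPM in G. acuticeps, 83.5, 40.7 and 67.6 CPM in T. bernacchii and at most 0.928 CPM in C. hamatus. E2AK1_MACFA, the heme-regulated kinase that in mammals holds back translation when heme is short, stood at 468, 421 and 262 CPM, against 7.98, 23.2 and 12 CPM in T. bernacchii and at most 4.37 CPM in C. hamatus. In both rows the lowest G. acuticeps library lay above all libraries of the other species (adjusted p = 9.1e-05 and 0.00932 for TAL1_TAKRU, 0.00039 and 0.00263 for E2AK1_MACFA). KLF1_HUMAN, a master switch of adult globin and membrane genes, lay between the other species at 13.7, 8.04 and 10.3 CPM. It was above C. hamatus (at most 1.19 CPM, log2 fold change 3.73 ± 0.69, adjusted p = 0.00201) and below T. bernacchii (169, 151 and 41.6 CPM, log2 fold change -3.49 ± 0.61, adjusted p = 0.00187).

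Globin rows did not follow the heme rows. Summed over 8 globin rows, G. acuticeps held 18930, 18594 and 21150 CPM and T. bernacchii 106942, 66938 and 173312 CPM, while C. hamatus held at most 1.02 CPM. All G. acuticeps libraries lay between the other species. G. acuticeps globin reads fell mainly on HBA2_GOBGI, an alpha chain, at 7477, 8277 and 9339 CPM, and HBB2_PSEUR, a beta chain, at 11310.1, 10223 and 11712 CPM. T. bernacchii reads fell mainly on HBA_TREBE (73628, 35263 and 86512 CPM) and HBB_TREHA (30136, 28152 and 83547 CPM), which had no count in G. acuticeps. The code of HBA_TREBE is that of T. bernacchii itself. Whether globin reads of each species were assigned to these entries equally well was not tested, and the sums carry that limit. The globins list therefore counts 2 of 6 tested rows as higher than in both, HBA2_GOBGI and HBB2_PSEUR, beside 5.91% of all tested rows. The summed globin level was nonetheless lower than in T. bernacchii. HBB2_PSEUR had no count in T. bernacchii and was at least 16229.6-fold higher in G. acuticeps, measured against a floor of 3 counts per library. Its partner row HBB2_GOBGI held 3115, 3418 and 3224 CPM in T. bernacchii and none in G. acuticeps, and when the pair was summed the log2 fold change against T. bernacchii was 1.76 (adjusted p = 0.0437).

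**Figure D3:**
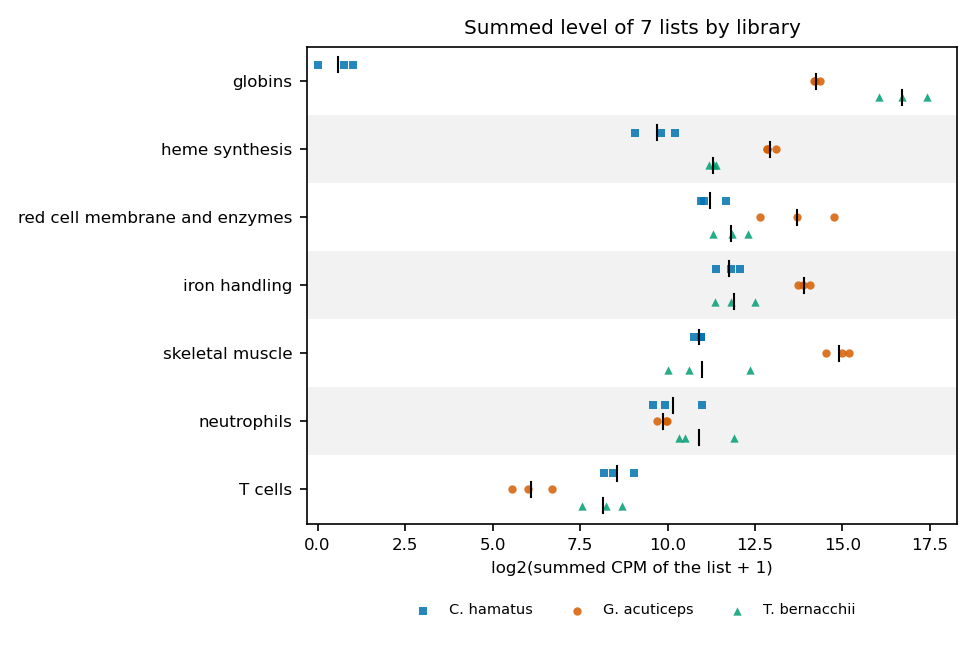
Summed CPM of 7 lists in each library, as log2(sum + 1), with bars at the mean of 3 libraries. G. acuticeps lies above both others for heme synthesis, red cell membrane, iron handling and skeletal muscle (where it overlaps both once the muscle actin rows are left out), between them for globins, and below both for T cell rows, where the gap to C. hamatus rests on LCK_CHICK alone, while its neutrophil sums overlap those of C. hamatus.

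In several of these rows the G. acuticeps libraries differed among themselves more than in others. Replicate 1 was highest and replicate 3 lowest for HEM3_HUMAN, B3AT_ONCMY, ANK1_HUMAN, TAL1_TAKRU and TFR1_CRIGR. HEM0_OPSTA, GLRX5_DANRE, CAHZ_DANRE and both globin rows differed by less than 1.5-fold between the G. acuticeps libraries.

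Among rows with at least 10 counts in every library that kept both calls whichever library was left out, the 12 highest were led by an actin and a galectin. LEG_ELEEL, a galectin entry of electric eel and so a protein that binds galactose-bearing sugars, stood at 25394, 21914 and 24856 CPM in G. acuticeps. It stood at 228, 151 and 293 CPM in C. hamatus and 119.9, 288 and 124 CPM in T. bernacchii. This single row took 2.67%, 2.02% and 2.03% of all counts in G. acuticeps and at most 0.0344% in any other library. Its log2 fold changes of 6.75 ± 0.67 (adjusted p = 9.74e-05) and 7.09 ± 0.68 (adjusted p = 9.4e-05) moved by less than 1.5-fold in every leave-one-out fit.

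ACTS_ORYLA, the actin of skeletal muscle, stood at 19039, 30866 and 29894 CPM in G. acuticeps, at most 192 CPM in C. hamatus and at most 165 CPM in T. bernacchii, and passed at adjusted p = 0.00202 and 0.00176. The row cannot be read as muscle alone. ACTB_OREMO, an actin of all cells, held 157, 567 and 380.4 CPM in G. acuticeps but 20389.5, 24077 and 19506 CPM in T. bernacchii. The 5 actin rows together took 2.04% to 2.93% of counts in G. acuticeps, 1.71% to 2.78% in T. bernacchii and 0.0252% to 0.231% in C. hamatus, so the G. acuticeps and T. bernacchii ranges overlapped. Whether reads of 1 actin were assigned to different entries in different species was not tested.

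Of 41 tested skeletal muscle rows, 4 were higher than in both others and 1 was lower, where 5.91% of all tested rows were higher and 11.5% lower, with medians of 3.86 against C. hamatus and 0.55 against T. bernacchii. Against C. hamatus alone 21 were higher and 4 lower, beside 16.8% and 25.1% of all tested rows. Against T. bernacchii alone 5 were higher and 4 lower, beside 13.1% and 18.3%. The list sum without the muscle actin rows was 4630, 1860 and 7647 CPM in G. acuticeps and 1614, 1780 and 1974 CPM in C. hamatus. In T. bernacchii it was 1008, 5026 and 1551 CPM, so G. acuticeps overlapped both other species. The overlap with T. bernacchii came from its replicate 2, and that with C. hamatus from G. acuticeps replicate 2. The other rows higher than in both were TITIN_MOUSE, the sarcomere spring (475, 410.3 and 530.3 CPM, at most 97.6 CPM elsewhere), ACTN3_BOVIN, an actinin of fast fibres (90.3, 36.4 and 183 CPM, at most 14.6 CPM elsewhere), and MLE1_LIZRA. MLE1_LIZRA, a myosin light chain, spread most, at 27.4, 81.7 and 757 CPM, with at most 8.35 CPM elsewhere. TNNT1_RAT, slow troponin T, had no count in G. acuticeps and passed against T. bernacchii only at adjusted p = 0.0406, a call lost without any 1 of 7 libraries (C. hamatus replicates 2 and 3, all of G. acuticeps, T. bernacchii replicates 1 and 2, up to 0.123). The list's count of lower rows was 0 without C. hamatus replicate 2 or 3, G. acuticeps replicate 1 or 2 or T. bernacchii replicate 2. Its count of higher rows was 6 without T. bernacchii replicate 2, and 7 without replicate 2 of both other species. Fitted without the skeletal muscle list, 508 of the 512 higher and 991 of the 992 lower rows were called as before. This fit drops only the list's own rows, among them 4 higher and 1 lower, and so bears on scaling alone. Muscle RNA as a part of these results was not tested.

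The remaining 10 of the 12 highest rows included 2 red cell rows already described, HEM3_HUMAN and ANK1_HUMAN. SHLB1_CHICK, endophilin-B1, which shapes membranes in autophagy and mitochondrial dynamics, stood at 3910.1, 2411 and 2522 CPM in G. acuticeps. Its levels were 52.9, 68.7 and 60.8 CPM in C. hamatus and 156, 132 and 136 CPM in T. bernacchii. The species did not overlap, and log2 fold changes of 5.60 ± 0.46 (adjusted p = 7.27e-05) and 4.38 ± 0.43 (adjusted p = 0.000116) held within 1.5-fold without any library. KLF11_MOUSE, a transcriptional repressor induced by TGF-beta in mammals, stood at 1812, 1036 and 364 CPM against at most 70.7 CPM in C. hamatus and 104 CPM in T. bernacchii. TBK1_HUMAN, a kinase of antiviral signalling and autophagy, stood at 874, 572 and 244 CPM against at most 54.8 and 68 CPM.

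RADI_BOVIN, radixin, which links actin to the cell membrane, was even at 562, 590.2 and 599 CPM in G. acuticeps, with 30.1, 18.3 and 54.4 CPM in C. hamatus and 4.24, 20.9 and 4.08 CPM in T. bernacchii. P2RX5_RAT, an ATP-gated ion channel, stood at 1633, 875 and 605 CPM, with at most 108 CPM in C. hamatus and 120.1 CPM in T. bernacchii. PRAF3_PIG, a protein of the endoplasmic reticulum, RXRBA_DANRE, a retinoid X receptor, and GOLP3_HUMAN, a Golgi protein, completed the set, all with groups that did not overlap. Against T. bernacchii, the fold changes of all 12 rows except LEG_ELEEL and SHLB1_CHICK moved by over 1.5-fold without T. bernacchii replicate 2, which held the highest T. bernacchii value in each. That these rows stayed called follows from the rule that chose them.

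**Figure D4:**
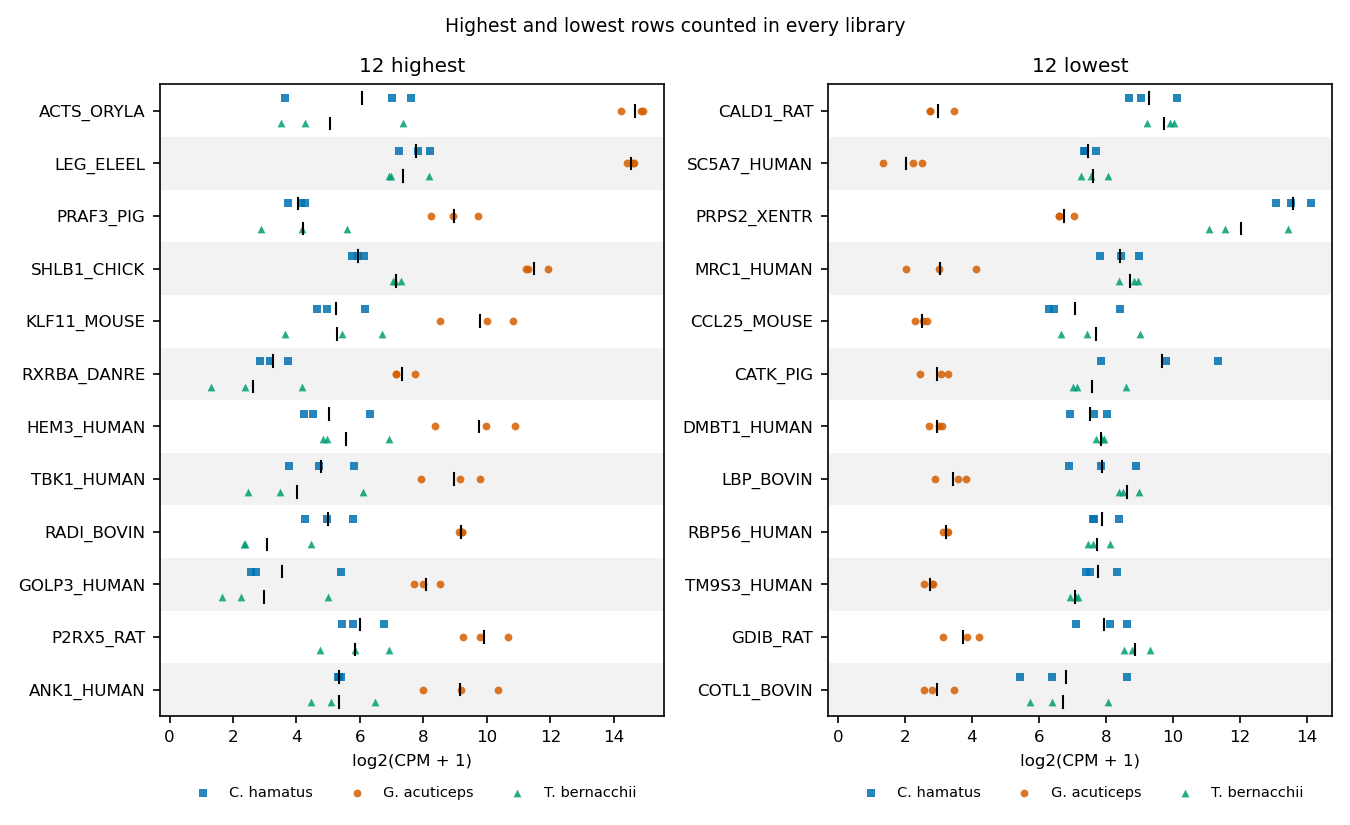
The 12 highest (left) and 12 lowest (right) rows among those with at least 10 counts in every library that stayed called in all 9 leave-one-out fits; each symbol is a library at log2(CPM + 1) and bars are means of 3 libraries. G. acuticeps libraries lie apart from all others in all 24 rows, which the choice of rows favours.

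The 12 lowest rows were chosen by the same rule. CALD1_RAT, caldesmon, an actin-binding regulator of smooth muscle, stood at 9.96, 5.78 and 5.7 CPM in G. acuticeps, 1108, 411 and 531 CPM in C. hamatus and 967, 596 and 1054 CPM in T. bernacchii. Its log2 fold changes were -6.59 ± 0.62 (adjusted p = 8.81e-05) and -6.94 ± 0.63 (adjusted p = 8.14e-05), and the first was -5.99 without C. hamatus replicate 1. Of 6 tested smooth muscle rows, 2 were lower than in both and 1 was higher, beside 11.5% and 5.91% of all tested rows. The count of lower rows was 1 in every leave-one-out fit except that without C. hamatus replicate 3. In those fits TAGL_BOVIN, the other lower row, lost its call against T. bernacchii (adjusted p 0.0504 to 0.151). The higher row was MYH11_CHICK, a smooth muscle myosin, with log2 fold changes of 2.47 against C. hamatus and 3.29 against T. bernacchii. Its call against C. hamatus was lost without any 1 of the G. acuticeps libraries or C. hamatus replicate 1 or 2 (adjusted p 0.0592 to 0.0772). SC5A7_HUMAN, the choline transporter of cholinergic nerve endings in mammals, stood at 4.67, 3.77 and 1.53 CPM against 162, 166 and 206 CPM in C. hamatus and 264, 152 and 187 CPM in T. bernacchii. The gap was -5.78 ± 0.55 and -5.96 ± 0.55 on the log2 scale (adjusted p = 8.81e-05 and 8.19e-05).

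PRPS2_XENTR, an enzyme that makes the ribose precursor of nucleotides, was also lower than in both. It stood at 17630.0, 11759.5 and 8698 CPM in C. hamatus and 2157, 11022 and 3004 CPM in T. bernacchii, against 96.2, 131 and 96.5 CPM in G. acuticeps (adjusted p = 0.00024 and 0.000469). RBP56_HUMAN, an RNA-binding protein of transcription and splicing, stood at 7.78, 8.79 and 8.65 CPM in G. acuticeps and between 175 and 333 CPM in all other libraries. TM9S3_HUMAN, a membrane protein of the Golgi, stood at 4.98, 6.03 and 6.1 CPM against 121 to 324 CPM elsewhere, and GDIB_RAT, which recycles Rab proteins in membrane traffic, at 7.78, 13.3 and 17.6 CPM against 135 to 635 CPM. The log2 fold changes against C. hamatus and T. bernacchii were -4.84 ± 0.44 and -4.67 ± 0.44 for RBP56_HUMAN, -5.29 ± 0.45 and -4.54 ± 0.43 for TM9S3_HUMAN and -4.36 ± 0.56 and -5.21 ± 0.58 for GDIB_RAT.

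MRC1_HUMAN, the macrophage mannose receptor, was also among the 12 lowest rows. It stood at 3.11, 7.03 and 16.3 CPM in G. acuticeps against 505, 347 and 226 CPM in C. hamatus and 456, 336 and 491 CPM in T. bernacchii. LBP_BOVIN, which binds bacterial lipopolysaccharide, stood at 6.54, 11.1 and 13.2 CPM against 119 to 475 CPM in C. hamatus and 332 to 509 CPM in T. bernacchii. DMBT1_HUMAN, a scavenger receptor that binds bacteria, stood at 5.6, 7.03 and 7.63 CPM against 120.3 to 262 CPM elsewhere (log2 fold changes -4.83 ± 0.45 and -5.07 ± 0.45, adjusted p = 8.81e-05 and 8.09e-05). CCL25_MOUSE, a chemokine, CATK_PIG, the collagen-cutting protease cathepsin K of mammalian osteoclasts, and COTL1_BOVIN, an actin-binding protein abundant in leukocytes, were each below 12 CPM in all G. acuticeps libraries and above 40 CPM in all others.

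Markers of the other blood cells were counted list by list. Of 10 tested neutrophil rows, 4 were lower than in both others and none was higher (1 without C. hamatus replicate 3), where 11.5% of all tested rows were lower and 5.91% higher, with medians of -2.22 and -3.52. CEBPA_RAT, a transcription factor that directs granulocyte formation, had no count in G. acuticeps, 3.25, 10.5 and 3.18 CPM in C. hamatus and 2.49, 24.2 and 2.72 CPM in T. bernacchii. It was at least 8.49-fold and 14.8-fold lower in G. acuticeps, against a floor of 3 counts per library (adjusted p = 0.00823 and 0.00702). Those bounds became 4.84-fold without C. hamatus replicate 2 and 3.92-fold without T. bernacchii replicate 2. The other 3 rows were CEBPE_HUMAN, needed for granule formation, CXCR1_RABIT, a receptor for the chemokine interleukin-8, and ITAM_MOUSE, the integrin CD11b. ITAM_MOUSE stood at 42.3, 69.8 and 43.4 CPM in G. acuticeps against 303 to 869 CPM in C. hamatus and 374, 332 and 90.2 CPM in T. bernacchii.

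The neutrophil count rested on single libraries. It was 1 without G. acuticeps replicate 1 or 3, and 2 without G. acuticeps replicate 2, without T. bernacchii replicate 2, and without C. hamatus replicates 2 and 3. CEBPE_HUMAN and CXCR1_RABIT lost the call against T. bernacchii without any 1 of the G. acuticeps libraries or T. bernacchii replicate 2 (adjusted p 0.0602 to 0.102), and ITAM_MOUSE without G. acuticeps replicate 1 or 3 or T. bernacchii replicate 1 (0.0549 to 0.0751). CSF3R_HUMAN, the receptor of the granulocyte growth factor, was not called, at 101, 192 and 166 CPM in G. acuticeps against 234 to 552 CPM in C. hamatus and 234 to 376 CPM in T. bernacchii (adjusted p = 0.0585 and 0.148; the first was 0.0366 without C. hamatus replicate 3). MMP9_MOUSE, a granule protease, lay between the species at 10.3, 17.6 and 16 CPM, with no count in C. hamatus and 83.5, 2064 and 57.5 CPM in T. bernacchii; its call against T. bernacchii (adjusted p = 0.0175) was lost without any 1 of the G. acuticeps libraries (0.0645 to 0.0774). Summed neutrophil levels were 832 to 1007 CPM in G. acuticeps, within the 766 to 2010 CPM of C. hamatus and below the 1280 to 3794 CPM of T. bernacchii.

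T cell rows summed lower in G. acuticeps than in both others, but against C. hamatus 1 row set that gap. The 9 rows summed to 64.1, 104 and 46.4 CPM in G. acuticeps, 528, 344 and 293 CPM in C. hamatus and 419, 186 and 303 CPM in T. bernacchii, with no overlap. Without LCK_CHICK the other 8 rows summed to 64.1, 103 and 46.2 CPM in G. acuticeps, above C. hamatus (43.4, 26.7 and 24.6 CPM) and below T. bernacchii (332, 127 and 233 CPM). Against C. hamatus 2 T cell rows were higher and 2 lower, with a median of -0.18. Against T. bernacchii none was higher and 4 were lower, with a median of -3.55. Over all tested rows, 16.8% were higher and 25.1% lower than in C. hamatus, and 13.1% higher and 18.3% lower than in T. bernacchii. Only 1 of the 7 tested rows was lower than in both (2 without T. bernacchii replicate 1), LCK_CHICK, the kinase that starts T cell receptor signalling, with 6 counts in all of G. acuticeps. LCK_CHICK stood at 0, 1 and 0.203 CPM there, 484, 317 and 268 CPM in C. hamatus and 86.5, 59.2 and 70.4 CPM in T. bernacchii (adjusted p = 7.76e-05 and 0.000128). Of 10 tested B cell rows 2 were lower than in both, IKZF1_ONCMY and PAX5_XENLA, lymphocyte transcription factors with 1 and 3 counts in G. acuticeps, and neither stayed called against both species when any 1 G. acuticeps library was left out. IKZF1_ONCMY also lost its call against T. bernacchii without T. bernacchii replicate 2 (adjusted p = 0.194), and PAX5_XENLA its call against C. hamatus without C. hamatus replicate 1 or 2 (0.0569 and 0.0628). Summed B cell rows overlapped, at 624 to 851 CPM in G. acuticeps and 642 to 1545 CPM elsewhere. Of 11 tested macrophage rows 1 was lower than in both, MRC1_HUMAN. The share of all tested rows that were lower, beside which the T cell, B cell and macrophage counts stand, was 11.5%.

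Of 11 tested thrombocyte rows, 3 were lower than in both and 1 was higher, beside 11.5% and 5.91% of all tested rows. P2Y12_RAT, the ADP receptor of platelets, stood at 2.18, 3.52 and 1.22 CPM against 41.3 to 185 CPM in C. hamatus and 30.7 to 199 CPM in T. bernacchii. GP1BA_HUMAN, the platelet receptor for von Willebrand factor, stood at 0.934, 3.52 and 1.93 CPM against at least 9.04 CPM elsewhere, and FLI1_MOUSE, a transcription factor of that lineage, at 28.6, 42.7 and 32.1 CPM against at least 60.8 CPM. VWF_HUMAN, von Willebrand factor itself, went the other way at 86.2, 48 and 67.8 CPM against at most 2.37 CPM. All groups were apart in these rows. GATA2_CHICK, a transcription factor of blood progenitors and thrombocytes, was the 1 of 10 tested stem and progenitor rows that was higher than in both, at 941, 663 and 626 CPM against at most 109 CPM in C. hamatus and 206 CPM in T. bernacchii; the share over all tested rows was 5.91%, and the count was 2 without C. hamatus replicate 1 or T. bernacchii replicate 3.

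**Figure D5:**
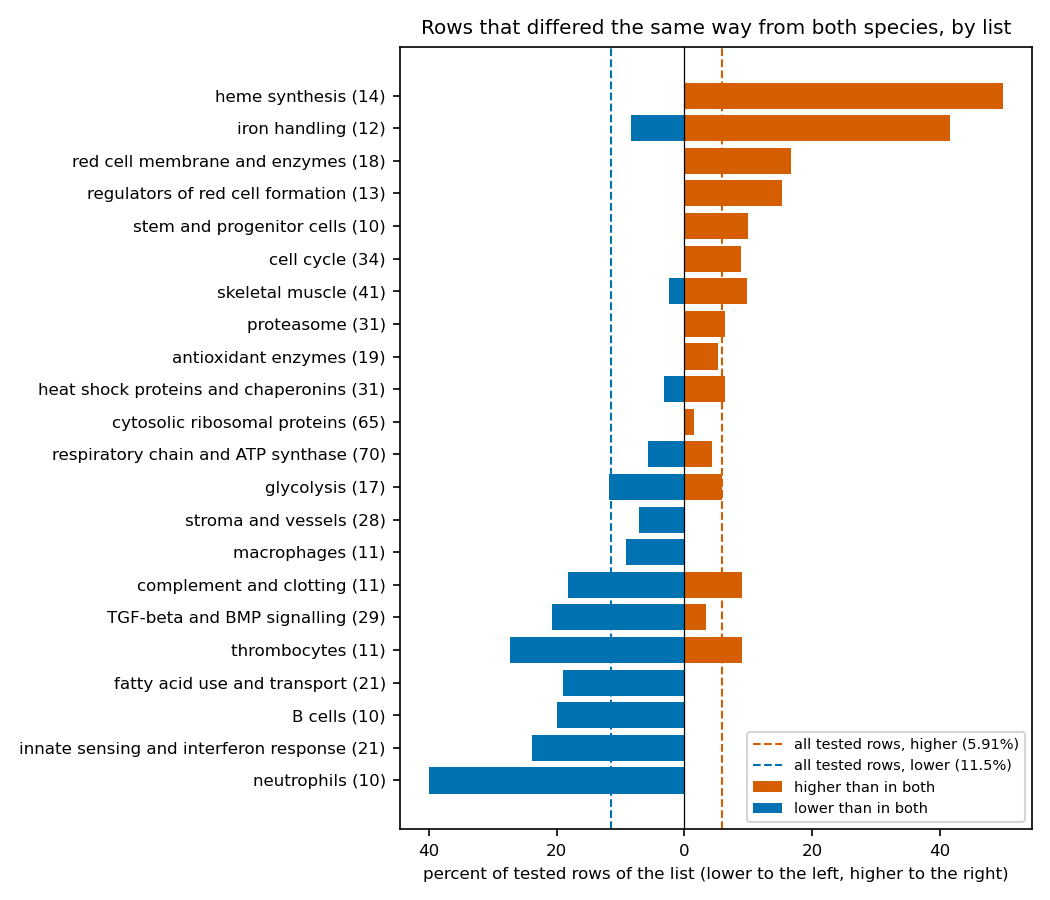
Percent of the tested rows of each list (number in brackets, lists with at least 10 tested rows) that were higher (orange, to the right) or lower (blue, to the left) than in both other species. The lists were chosen with earlier results of these data known. Dashed lines mark the shares over all tested rows, 5.91% higher and 11.5% lower; heme synthesis (7 of 14) and iron handling (5 of 12) extend farthest to the right and neutrophils (4 of 10) farthest to the left.

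Innate sensing and interferon response had 5 of 21 tested rows lower than in both and none higher, beside 11.5% and 5.91% of all tested rows, with medians of -0.28 and -0.61. The count of lower rows was 3 without G. acuticeps replicate 2, and that of higher rows was 2 without T. bernacchii replicate 3 and 1 without C. hamatus replicate 1 or 2. IL8_CHICK, the neutrophil-attracting chemokine interleukin-8, held 2 counts in G. acuticeps, against 14.1, 27.1 and 72.3 CPM in C. hamatus and 66.8, 67 and 36.4 CPM in T. bernacchii. The ratios were 349 with a 95% counting interval of 96.2 to 2893 for C. hamatus over G. acuticeps, and 415 with an interval of 114 to 3428 for T. bernacchii. Both G. acuticeps counts were in its replicate 3, so without that library it had none, and the fitted log2 fold change against C. hamatus moved from -8.18 to -7.28 without C. hamatus replicate 3. IFIH1_MOUSE, a sensor of viral RNA, stood at 17.4, 25.6 and 32.3 CPM against 47.3 to 121 CPM in C. hamatus and 151 to 212 CPM in T. bernacchii (log2 fold changes -1.84 ± 0.45 and -2.81 ± 0.47, adjusted p = 0.00854 and 0.00135). Summed over the list, G. acuticeps (2194 to 4526 CPM) and T. bernacchii (1990 to 4116 CPM) overlapped, and C. hamatus (837 to 1044 CPM) lay below both. IRF4_HUMAN and IRF7_HUMAN, interferon regulatory factors, were also lower than in both. IRF4_HUMAN lost its call against T. bernacchii without G. acuticeps replicate 1 or 2 or T. bernacchii replicate 2 (adjusted p 0.05 to 0.0707), and IRF7_HUMAN its call against C. hamatus without C. hamatus replicate 2 or G. acuticeps replicate 2 or 3 (0.0642 to 0.0714).

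IFI27_HUMAN, a small interferon-inducible protein that the list does not hold, was higher than in both. It stood at 564, 644 and 1172 CPM in G. acuticeps, held 1 count in C. hamatus and none in T. bernacchii, and was at least 1162-fold higher than in T. bernacchii. TPSN_CHICK, tapasin, which loads peptides onto class I molecules, was higher than in both, at 677, 475 and 322 CPM against at most 93.1 CPM in C. hamatus and 73.5 CPM in T. bernacchii (adjusted p = 0.00409 and 0.0125). It was the 1 of 7 tested antigen presentation rows so called, beside 5.91% of all tested rows, and the list medians were -0.07 and -0.05. Of 11 tested complement and clotting rows, 1 was higher than in both and 2 were lower, beside 5.91% and 11.5% of all tested rows. CO9_TAKRU, complement C9, which forms the membrane pore, stood at 130.1, 115 and 35 CPM in G. acuticeps. It had none in C. hamatus and at most 6.39 CPM in T. bernacchii. CFAB_HUMAN, complement factor B, and CO6_RAT, complement C6, were lower than in both; the first lost its call against C. hamatus and the second its call against T. bernacchii when G. acuticeps replicate 2 or replicate 3, in that order, was left out (adjusted p = 0.0533 and 0.0527).

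TGF-beta and BMP signalling, the pathway named in the series title, had 6 of 29 tested rows lower than in both and 1 higher, where 11.5% of all tested rows were lower and 5.91% higher, with medians of -2.45 against C. hamatus and -0.45 against T. bernacchii. The count of lower rows was 2 without G. acuticeps replicate 1 or 2 and 3 without its replicate 3. Against C. hamatus alone 17 rows were lower and 3 higher, beside 25.1% and 16.8% of all tested rows. Against T. bernacchii alone 7 were lower and 5 higher, beside 18.3% and 13.1%. LTBP3_HUMAN, which holds latent TGF-beta in the matrix, had 1 count in G. acuticeps and stood at 10.4, 13.5 and 24.2 CPM in C. hamatus and 4.99, 4.04 and 5.14 CPM in T. bernacchii. It kept both calls in every leave-one-out fit.

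The other lower rows were less firm. SMAD7_MOUSE, an inhibitor that TGF-beta itself induces, stood at 2.8, 3.01 and 3.46 CPM against 19.5, 12.9 and 18.7 CPM in C. hamatus and 19.4, 13.5 and 7.08 CPM in T. bernacchii, with no overlap (adjusted p = 0.00906 and 0.0231). SMAD1_DANRE, which carries BMP signals, had no count in G. acuticeps but was at 0.499, 3.36 and 0.485 CPM in T. bernacchii. BMR1B_HUMAN, a BMP receptor, and ID2_PIG, a target of BMP signals, were lower than in both without overlap. SMAD1_DANRE, BMR1B_HUMAN, ID2_PIG and SMAD7_MOUSE each lost the call against T. bernacchii without G. acuticeps replicate 1 or 2, at adjusted p of 0.0565 to 0.118. Their calls were also lost without G. acuticeps replicate 3 (SMAD1_DANRE, BMR1B_HUMAN and SMAD7_MOUSE), C. hamatus replicate 1 (SMAD1_DANRE), T. bernacchii replicate 1 (SMAD7_MOUSE) or T. bernacchii replicate 2 (SMAD1_DANRE and ID2_PIG), and SMAD7_MOUSE lost its call against C. hamatus without G. acuticeps replicate 2 (0.0542). CBP_HUMAN, a transcriptional coactivator of many pathways, turned to 1.18 against C. hamatus (adjusted p = 0.0971) when summed with its other row, from -3.34 alone. SMAD3_CHICK, which carries TGF-beta signals, was higher than in both at 86.5, 50.2 and 38.2 CPM against at most 9.48 CPM, but lost its call against C. hamatus without any 1 of C. hamatus replicates 1, 2 and 3 or G. acuticeps replicates 1 and 2 (0.0559 to 0.0998).

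Of 34 tested cell cycle rows, 3 were higher than in both and none was lower, with 5.91% and 11.5% of all tested rows so called. Against C. hamatus alone 21 were higher (16.8% of all tested rows were) and against T. bernacchii alone 4 (13.1% of all); the difference between these counts was not tested. The medians were 2.35 and 0.74. CENPA_DANRE, the histone of centromeres, kept both calls in every leave-one-out fit, at 203, 185 and 247 CPM in G. acuticeps, 19.5, 9.48 and 10.7 CPM in C. hamatus and 47.9, 39.7 and 52.8 CPM in T. bernacchii. The log2 fold changes were 3.99 ± 0.44 (adjusted p = 0.000151) and 2.18 ± 0.40 (adjusted p = 0.00243). CCNE1_DANRE, cyclin E1, stood at 11.8, 15.8 and 18.6 CPM against at most 1.01 CPM and lost its call against T. bernacchii without G. acuticeps replicate 3 (0.0543). AURKB_DANRE, a mitotic kinase, passed against T. bernacchii at adjusted p = 0.0467 and lost that call without any 1 of the G. acuticeps or T. bernacchii libraries (0.0804 to 0.11).

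PCNA_HAPBU, the replication clamp, was not called, at 757, 901 and 938 CPM in G. acuticeps against 587, 77.8 and 122 CPM in C. hamatus and 340.3, 231 and 361 CPM in T. bernacchii (adjusted p = 0.0634 and 0.121). Without C. hamatus replicate 1 both comparisons passed, at 0.00144 and 0.0135. The count of cell cycle rows higher than in both was 1 without G. acuticeps replicate 3, 7 without C. hamatus replicate 1, and 5 without its replicate 2, its replicate 3 or both.

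Lists of housekeeping and stress proteins were counted in the same way, beside shares of 5.91% higher and 11.5% lower among all tested rows. Of 65 ribosomal protein rows 1 was higher than in both, of 70 respiratory chain rows 3 were higher and 4 lower, of 31 proteasome rows 2 were higher, and of 31 heat shock and chaperonin rows 2 were higher and 1 lower. Several of these counts rested on single libraries. The ribosomal count was 5 without C. hamatus replicate 1, 2 without T. bernacchii replicate 3 and 0 without any 1 of the other libraries. The respiratory chain count of higher rows was 5 without C. hamatus replicate 3 and 0 without G. acuticeps replicate 2 or 3 or T. bernacchii replicate 1 or 2, and that of lower rows was 1 without any 1 of the G. acuticeps libraries and 2 without T. bernacchii replicate 2. The proteasome count was 4 without C. hamatus replicate 1, 1 when its replicate 3 or T. bernacchii replicate 2 was left out, and 0 when G. acuticeps replicate 2 or 3, T. bernacchii replicate 1 or C. hamatus replicate 2 was left out. The lower chaperonin row was lost without any 1 of the G. acuticeps libraries. DNJB9_RAT, a chaperone of the endoplasmic reticulum, stood at 216 CPM or more in every G. acuticeps library and at most 87.4 CPM elsewhere (log2 fold changes 2.41 ± 0.45 and 2.06 ± 0.44, adjusted p = 0.00208 and 0.0055), and DNJB2_MOUSE, a chaperone known from neurons, at 61.6, 41 and 46.8 CPM against at most 1.86 CPM. Proteasome rows were higher than in C. hamatus in 15 of 31 cases (16.8% of all tested rows were) and than in T. bernacchii in 4 (13.1% of all). Of 28 stroma and vessel rows, 2 were lower than in both. Against C. hamatus alone 16 were lower (25.1% of all tested rows were) and against T. bernacchii alone 3 (18.3% of all). The count lower than in both was 1 without any 1 of the G. acuticeps libraries or T. bernacchii replicate 2.

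Metabolic rows moved singly. PGAM1_CHICK, a glycolytic mutase, stood at 332, 316 and 339.7 CPM against 34.6 to 128 CPM elsewhere (log2 fold changes 1.92 ± 0.53 and 2.23 ± 0.53, adjusted p = 0.0146 and 0.00952). KPYM_RAT and K6PP_HUMAN, pyruvate kinase and phosphofructokinase, were lower than in both, so 1 of 17 tested glycolysis rows was higher than in both and 2 were lower, beside 5.91% and 11.5% of all tested rows; the count of higher glycolysis rows was 3 without T. bernacchii replicate 2. Of 21 tested rows for fatty acid use, 4 were lower than in both and none was higher, beside 11.5% and 5.91% of all tested rows. ACOD_CYPCA, a desaturase that makes monounsaturated fatty acids, had 1 count in G. acuticeps and stood at 16.5, 40.3 and 116 CPM in C. hamatus and 162, 211 and 193 CPM in T. bernacchii. PLIN2_HUMAN, which coats lipid droplets, had 4 counts in G. acuticeps and stood at 5.92 to 25.9 CPM elsewhere, and ACADM_MOUSE, of mitochondrial fatty acid oxidation, stood at 24.9, 16.3 and 32.9 CPM against 63.1 to 165 CPM. ACADM_MOUSE lost both calls without G. acuticeps replicate 2 (adjusted p = 0.0535 and 0.0786), and LIPL_PAPAN lost its calls when summed with its other row (0.119 and 0.634), and its call against T. bernacchii without G. acuticeps replicate 3 (0.0529). GPX1_BOVIN was the only antioxidant row of 19 that was higher than in both (2 were without T. bernacchii replicate 2), beside 5.91% of all tested rows. Its call was likewise lost when summed, at -0.43 against C. hamatus (adjusted p = 0.467).

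A separate extreme was formed by rows that had no count in a whole species and averaged 100 counts or more where they were higher. CHM2A_DANRE, a subunit of the ESCRT machinery that pinches off membranes, stood at 140.1, 135 and 136 CPM in G. acuticeps with no count in either other species, so at least 178-fold above C. hamatus and 201-fold above T. bernacchii. CERS2_MOUSE, ceramide synthase 2, was also at 0 in both, but summed with its other row it was not called against T. bernacchii (adjusted p = 0.0625). Y8948_DICDI, at 132, 89.2 and 44.7 CPM, was the last of the 6 highest.

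The 6 lowest of this kind had no count in G. acuticeps. CHMP5_RAT, another ESCRT protein, stood at 125, 115 and 121 CPM in C. hamatus and 101, 136 and 66.2 CPM in T. bernacchii, which makes it at least 181-fold and 152-fold lower, and it stayed lower when summed with its other row (log2 fold changes -5.55 and -5.32). MK12_DANRE, a stress-activated MAP kinase, was at least 242-fold and 272-fold lower, and EIF3C_DANRE, a translation initiation subunit, at least 157-fold and 268-fold lower. The MK12_DANRE bound against T. bernacchii was 176-fold without T. bernacchii replicate 2, and the EIF3C_DANRE bound against C. hamatus was 103-fold without C. hamatus replicate 3. QCR6_HUMAN, a subunit of respiratory complex III, was at least 163-fold and 119-fold lower, and the first bound was 108-fold without C. hamatus replicate 1. AT1A1_OREMO, the sodium pump alpha subunit, was at 0 in G. acuticeps while its other row was not, and summed it was -1.75 against C. hamatus (adjusted p = 0.0244) and -1.06 against T. bernacchii (adjusted p = 0.153). No count on a row says only that no read was assigned to that entry.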

How the data were processed

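The deposited table holds read counts per row and library, without normalization, and all 9 sample columns were used (0 columns unused). Per the labels' protocols, tissue was frozen on dry ice, RNA was extracted with Trizol and libraries were made with an Illumina TruSeq kit. The aligner, the reference, the counter and its use of strand are not stated in any source used here. Rows are UniProt entry names (12653 rows, 11291 mnemonics); no genome or sequence was used.

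Counts were filtered with filterByExpr by species (8662 rows kept), given TMM factors, and all 9 libraries entered 1 quasi-likelihood model of edgeR (version 4.0.16, under R version 4.3.3) with a shared estimate of spread. Contrasts were G. acuticeps minus C. hamatus, minus T. bernacchii, and minus their log-scale mean. A call needed a p under 0.05 after Benjamini-Hochberg adjustment over all tested rows. SE is the absolute log2 fold change over the square root of F. CPM use TMM-scaled totals. Folds against a group at 0 are lower bounds against 3 counts per library; with 1 to 3 counts, the ratio has an exact 95% binomial interval. Both cover counting error only. The fit was also run on simulated counts, and no result here rests on that run. Rows not set to change had the same mean level in all species there, unlike the data.

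Members and the 29 lists were chosen with earlier results of these data known, and 15 wrong name matches were removed after row names were seen. Named rows were the 12 highest and 12 lowest with at least 10 counts in every library and stable in all leave-one-out fits; the 6 highest and 6 lowest with no count in a species; and up to 4 rows per list. The further members of the heme, iron, muscle, innate and TGF-beta lists, and the rows given as not called or lying between the species, were named after their values were seen. Alternatives were DESeq2 1.42.0 (size factors, and own test), upper-quartile factors, no filter, filters of 50 counts in 3 libraries or 10 in each, a replicate block, pairs fitted alone, rows of 1 mnemonic summed, thinning to 2501922 counts, leaving out the 20 highest rows or the skeletal muscle list, and leaving out each library. Added after seeing the data were fits without C. hamatus replicates 2 and 3, and without replicate 2 of C. hamatus and of T. bernacchii. A pair of rows that the rule names is not reported here. Figures used matplotlib.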

Additional observations from a re-analysis of the deposited data

How the results depend on the processing

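With at least 10 counts required in each library, 187 rows were higher and 270 lower than in both (512 and 992 otherwise). Against the mean 590 were higher and 620 lower, against C. hamatus 586 and 756, and against T. bernacchii 386 and 470. This filter removes rows that are near 0 in a species, and 4402 of the 8662 tested rows met it. Of the 218 higher and 233 lower rows that met it, 185 and 232 kept their calls. DESeq2's own test called 692 and 1200 rows. Without C. hamatus replicates 2 and 3, 944 rows were higher and 1303 lower than C. hamatus; fewer libraries were tested.

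Leaving out each library in turn gave 334 to 612 rows higher and 583 to 1016 lower than in both. Against the mean the ranges were 1141 to 1819 higher and 1049 to 1868 lower, against C. hamatus 1095 to 1664 and 1570 to 2513, and against T. bernacchii 825 to 1317 and 969 to 1773. The counts stayed within 1.5 times of the reported ones under the other alternatives.

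Whether the replicate numbers pair libraries is not stated and was not settled. Correlations of deviations ran from -0.201 to 0.245 for the same number and from -0.160 to 0.212 for different numbers. The highest was between replicate 2 of C. hamatus and replicate 2 of T. bernacchii. With 3 libraries a species, such values cannot show whether libraries were handled together. A fit with the replicate block called 509 rows higher and 862 lower than in both, of which 446 and 829 were also called without it.

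Among named rows, directions turned in these cases. Summing rows of 1 protein gave log2 fold changes of 1.18 for CBP_HUMAN and -0.43 for GPX1_BOVIN against C. hamatus, and 0.71 for LIPL_PAPAN and 1.76 for HBB2_GOBGI against T. bernacchii. ACTB_OREMO against C. hamatus ranged from -1.28 to 1.57 when single libraries were left out; it was 1.57 without C. hamatus replicate 2, 1.03 without its replicates 2 and 3, and 1.56 without replicate 2 of both other species. HEM1_OPSTA against T. bernacchii ranged from -0.56 to 0.13, the latter without G. acuticeps replicate 1. The cause was not tested, apart from the summing, where the other row holds the reads.

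Depth limits rows near 0: a level of 3 counts in each library averages 0.664 CPM for G. acuticeps, 0.683 for T. bernacchii and 0.769 for C. hamatus. With 3 libraries a species and totals that differ between them, calls near the threshold can rest on single libraries.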

Other observations

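A pair of gene groups was put together after the values were seen, and their counts are a description with no test. Of 33 tested immediate early response rows, genes that cells switch on within minutes of a stimulus, 18 were lower in G. acuticeps than in both other species and none was higher, where 11.5% of all tested rows were lower. Medians were -3.52 against C. hamatus and -2.67 against T. bernacchii. EGR1_DANRE, a zinc finger factor, stood at 0.934, 0.502 and 0.61 CPM in G. acuticeps, 37.8, 165 and 87.4 CPM in C. hamatus and 169.5, 42.7 and 121 CPM in T. bernacchii. JUNB_CYPCA, a subunit of the AP-1 factor, stood at 2.18, 1.76 and 4.58 CPM against 67.3, 364 and 126 CPM and 245, 46.1 and 190.5 CPM. FOS_TAKRU, its partner, stood at 9.34, 2.26 and 2.03 CPM against 22.7, 398 and 89.4 CPM and 137, 48.1 and 86.3 CPM, and ATF3_BOVIN, a stress-induced factor, had no count in G. acuticeps and at least 28.3 CPM in every other library. In these rows no G. acuticeps library overlapped another species. FOS_TAKRU kept both calls in 7 of the 9 leave-one-out fits, and EGR1_DANRE, JUNB_CYPCA and ATF3_BOVIN in all 9. Other members did not stand apart: MYC_ONCMY, CYR61_CHICK and JUND_RAT were called against neither species. JUN_COTJA and JUN_SERCA were called lower against C. hamatus only. The count of lower rows was 8 without G. acuticeps replicate 2, 11 without its replicate 3 and 10 without C. hamatus replicates 2 and 3, and 17 when rows of 1 protein were summed.

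Of 34 tested rows for tRNA charging and the response to amino acid shortage, 7 were higher than in both and 3 were lower, beside 5.91% and 11.5% of all tested rows, with medians of 0.46 and 0.13. SYHC_TAKRU, histidine-tRNA ligase, stood at 2056, 3635 and 4704 CPM in G. acuticeps, 128, 91.4 and 21.8 CPM in C. hamatus and 240.3, 226 and 269.9 CPM in T. bernacchii. SYK_MOUSE, lysine-tRNA ligase, stood at 1399, 1268 and 1502 CPM against 152, 69 and 134 CPM and 227, 269 and 244 CPM. CHAC1_DANRE, a glutathione-degrading enzyme induced under stress, stood at 428, 512 and 565 CPM against at most 157 CPM elsewhere. The higher rows include E2AK1_MACFA, already counted among regulators of red cell formation. ATF4_RAT and SYG_PONAB, also higher, kept both calls in only 3 and 5 of the 9 leave-one-out fits. SYG_MOUSE, another row of the SYG protein, was not called, with log2 fold changes of -1.83 and -1.85 (adjusted p = 0.101 and 0.116). ATF4_DANRE, another ATF4 row, stood at 1267, 1274 and 1600 CPM in G. acuticeps. It had no count in C. hamatus and was not called against T. bernacchii (adjusted p = 0.11). SYIC_HUMAN, isoleucine-tRNA ligase, was among the 3 lower rows, with at most 0.407 CPM in G. acuticeps and at least 6.75 CPM elsewhere. DDIT3_HUMAN was another, at 8.72, 5.28 and 1.73 CPM in G. acuticeps and at least 14.1 CPM elsewhere, and it kept both calls in all 9 fits. The count of higher rows was 4 without C. hamatus replicates 2 and 3.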
